A study of Caenorhabditis elegans with 3 samples.

Results

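Regions at genes of short non-coding RNAs of Caenorhabditis elegans were described in a ChIP-seq map of MML-1, for which DNA bound by the tagged protein was precipitated from larvae and sequenced. A region was counted when its summit lay within 200 bp of the body of an annotated tRNA, snoRNA, snRNA, miRNA or rRNA gene. By this rule 390 of the 30000 regions of the pooled list were kept, or 1.3%. There were 194 at tRNA genes, 106 at snoRNA genes, 35 at snRNA genes, 56 at miRNA genes and 0 at rRNA genes. A single region, at rank 12761, was counted for both the snoRNA gene C34E11.20 and the miRNA gene cel-mir-239a.

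All 3 biological replicates were of strain OP198, which carries unc-119(ed3) III and the integrated transgene wgIs198, as whole L3 larvae, male and female pooled, of unknown age. Per the labels the transgene expresses MML-1 with a C-terminal GFP-FLAG tag, while the sample descriptions name eGFP-mml-1. No wild type, untagged or treated group is given, so no condition was compared, and whole animals cannot show in which tissue a region was bound. Replicates 1 and 2 have a stated size range of 150 to 350 and the stock centre CGC as source, whereas replicate 3 was sonicated with a microtip and came from the submitting laboratory. Regions were most often 360 bp wide in replicate 3, against 264 and 260 bp in replicates 1 and 2. Replicate 3 therefore stands apart, and results are given with and without it. The depth of the libraries is unknown, since the lists give no read totals.

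MML-1, the worm's Mondo protein, is a transcription factor that acts with its partner MXL-2 and binds E-boxes such as CACGTG. tRNA genes are transcribed by RNA polymerase III from promoter elements inside the gene, called box A and box B, which are bound by the factor TFIIIC. TFIIIC then places TFIIIB, which holds the TATA-binding protein, just upstream of the start. In C. elegans some snoRNA genes are also polymerase III genes with such elements, other snoRNAs lie in introns of protein-coding genes, and snRNA genes have upstream elements of their own. miRNA genes are mostly transcribed by RNA polymerase II.

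The authors' list of reproducible peaks held 10 regions at these genes. To show where the summits lay at tRNA and snoRNA genes, 5 of them are printed below from the WBcel235 assembly (ce11) on the strand of the gene, with the gene in capitals and the bases before it in lower case. They are the tRNA-Glu gene M02F4.t2 (chrX:3035976-3036127, minus strand), the tRNA-His gene C06G1.t1 (chrX:16634830-16634981, minus strand) and the snoRNA genes T03F7.8 (chrV:11314138-11314332, plus strand), ZK994.7 (chrV:8500459-8500645, plus strand) and C51F7.4 (chrV:12303479-12303693, plus strand). The lower-case run has 80 bases at the tRNA genes and 120 at the snoRNA genes. Counted back from the first capital, the summit lay at −36 in M02F4.t2, −30 in C06G1.t1, −89 in T03F7.8, −45 in ZK994.7 and −35 in C51F7.4. At the reproducible tRNA genes not printed, C53C7.t1, R11.t1 and C42D8.t1, it lay farther out, at −52, −72 and −42.
M02F4.t2: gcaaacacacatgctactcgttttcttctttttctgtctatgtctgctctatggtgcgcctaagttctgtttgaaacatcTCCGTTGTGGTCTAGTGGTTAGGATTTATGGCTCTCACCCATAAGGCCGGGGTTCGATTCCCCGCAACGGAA
C06G1.t1: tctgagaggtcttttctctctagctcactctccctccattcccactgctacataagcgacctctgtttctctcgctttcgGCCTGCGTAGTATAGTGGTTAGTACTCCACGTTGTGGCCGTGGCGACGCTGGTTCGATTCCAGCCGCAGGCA
T03F7.8: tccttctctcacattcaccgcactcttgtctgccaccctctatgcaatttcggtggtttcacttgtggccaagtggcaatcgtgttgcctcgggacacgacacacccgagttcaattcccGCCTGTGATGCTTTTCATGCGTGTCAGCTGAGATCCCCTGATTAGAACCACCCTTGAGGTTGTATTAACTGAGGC
ZK994.7: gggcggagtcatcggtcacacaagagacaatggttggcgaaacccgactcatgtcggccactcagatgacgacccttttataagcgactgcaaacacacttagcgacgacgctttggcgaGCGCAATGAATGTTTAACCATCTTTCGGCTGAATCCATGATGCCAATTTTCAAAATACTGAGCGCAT
C51F7.4: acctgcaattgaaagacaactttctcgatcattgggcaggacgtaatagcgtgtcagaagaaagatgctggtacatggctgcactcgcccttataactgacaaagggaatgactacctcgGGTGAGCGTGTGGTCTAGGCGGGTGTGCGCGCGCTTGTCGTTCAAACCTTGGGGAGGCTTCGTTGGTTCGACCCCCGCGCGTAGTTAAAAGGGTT

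All 5 summits fell in the lower-case run, upstream of the RNA itself. The tRNA genes hold a match to TTCNANNCC, the core of box B, inside the gene, starting at base 53 of M02F4.t2 and at base 53 of C06G1.t1. In the snoRNA gene T03F7.8 a match began at −10, before the annotated RNA, and in C51F7.4 one began at base 67. The snoRNA gene ZK994.7 had no match. None of the 10 reproducible regions held CACGTG in the 100 bp on either side of the summit, whereas 62.7% of the other 185 reproducible peaks did.

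Signal is the authors' own value for each region and was used only to rank the regions of a list. tRNA and snoRNA regions stood high in the pooled list. The median rank percentile, where 100 is the strongest region, was 77.9 for tRNA regions, 74.6 for snoRNA regions, 68.0 for snRNA regions and 66.1 for miRNA regions. It was 71.6 over all 390 and 53.5 for the 3636 regions at protein-coding transcript starts, with a summit within 200 bp of the start. The remaining 29610 regions together had 49.8.

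Of the first 1000 pooled regions, 74 lay at these genes, or 7.40% (95% Clopper-Pearson interval 5.86 to 9.20), against 1.09% of the lower regions. They were 44 tRNA, 25 snoRNA, 3 snRNA and 2 miRNA regions. Seen from the members, 22.7% of tRNA regions, 23.6% of snoRNA regions, 8.57% of snRNA regions and 3.57% of miRNA regions were among the first 1000, where 3.33% of all pooled regions are by construction. Coding start regions reached 4.70%. The miRNA share is thus near that of all regions. The intervals cover the number of regions only, and not the spread between animals.

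The reproducible list of 195 peaks is 0.650% of the pooled regions. It held 5 of 194 tRNA regions (2.58%), 4 of 106 snoRNA regions (3.77%) and 1 of 35 snRNA regions (2.86%). It held 0 miRNA regions, which allows a share of up to 1.87% of the 195 peaks (95% Clopper-Pearson). As shares of the 195 peaks, these were 2.56% for tRNA, 2.05% for snoRNA and 0.513% for snRNA regions. Together the 10 members were 5.13% of the peaks, against 1.275% of the other pooled regions. The windows of 200 bp around all nuclear genes of these classes cover 0.650% of the genome. By class this was 0.272% for tRNA, 0.182% for snoRNA, 0.0655% for snRNA and 0.118% for miRNA genes. That it equals the share of pooled regions in the reproducible list has no meaning. The 20 nuclear rRNA genes had no region in any of the lists. Of these genes, 12 share their sequence with another. How reads that fit several copies were placed is not given, so this absence does not show a lack of binding.

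The same shares were read in each replicate's own list, ranked by that replicate's signal. Regions at these genes made up 6.8%, 3.4% and 1.9% of the first 1000 regions of replicates 1, 2 and 3, against 1.08%, 0.903% and 1.05% of their lower regions. The first 1000 were 3.33% of the lists of replicates 1 and 2 and 3.70% of that of replicate 3. The share was higher among the first 1000 in 3 of 3 replicates, by 3.03 ± 2.48 percentage points (SD, n = 3). With 3 replicates the two-sided exact sign-flip test cannot go below p = 0.25, which was its value here (adjusted p = 0.321 over 9 tests). Without replicate 3 the mean difference was 4.11 points, and without replicate 1 it was 1.68.

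**Figure D1:**
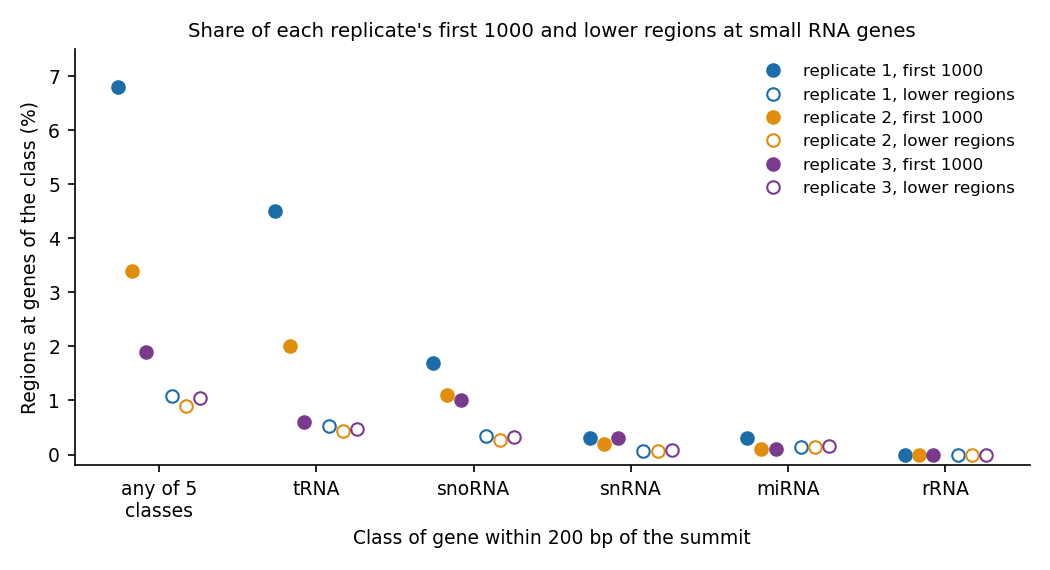
Share of regions at each class of gene (y axis, percent) among the first 1000 regions (filled) and the lower regions (open) of replicates 1, 2 and 3, each in its own list. tRNA genes take 4.50% of the first 1000 in replicate 1 and 0.600% in replicate 3, while snoRNA shares run from 1.70% to 1.00%.

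tRNA regions were the class whose share differed most between replicates. They were 45, 20 and 6 of the first 1000 regions of replicates 1, 2 and 3, which is 4.50%, 2.00% and 0.600%, against 0.528%, 0.434% and 0.469% of the lower regions. The difference was 1.89 ± 1.94 points (SD, n = 3, exact sign-flip p = 0.25, adjusted p = 0.321), which is within its spread. Without replicate 3 it was 2.77 points. Without replicate 1 it was 0.848 points. Among the first 195 regions of each list, as many as in the reproducible list, tRNA genes had 14, 8 and 0. In replicate 3 the tRNA share of the first 1000 was thus close to its share of the lower regions.

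snoRNA regions varied less. They were 17, 11 and 10 of the first 1000, or 1.7%, 1.1% and 1.0%, against 0.334%, 0.266% and 0.331% of the lower regions. The difference was 0.957 ± 0.364 points (SD, n = 3, exact sign-flip p = 0.25, adjusted p = 0.321), larger than its spread, and 1.1 points without replicate 3. snRNA regions were 3, 2 and 3 of the first 1000, a difference of 0.191 ± 0.0530 points with the same exact p. miRNA regions were 3, 1 and 1, and the difference of 0.0187 ± 0.116 points was smaller than its spread (exact sign-flip p = 1).

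The median percentile of all members was 67.9, 63.1 and 57.0 in replicates 1, 2 and 3, against 49.8, 49.9 and 49.9 for the rest of each list. The difference was 12.8 ± 5.55 points (SD, n = 3, exact sign-flip p = 0.25, adjusted p = 0.321). Against coding start regions, with 52.4, 50.3 and 51.5, it was 11.3 ± 5.19 points with the same p. Members were higher in 3 of 3 replicates in both comparisons. Without replicate 3 the differences were 15.6 and 14.2 points.

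The 10 reproducible regions are described in the order of their pooled rank. M02F4.t2 (WBGene00023111), one of 20 tRNA-Glu genes of identical sequence, had pooled rank 81 and signal 48.0, and its ranks were 65, 77 and 250 in replicates 1, 2 and 3. The snoRNA gene T03F7.8 (WBGene00045071), in an intron of cutl-18 on the opposite strand, had pooled rank 85 and ranks 159, 45 and 301. ZK994.7 (WBGene00044958), a snoRNA gene in an intron of the peroxidasin gene pxn-1 on the same strand, had pooled rank 89 and ranks 85, 92 and 264. These are the 3 members that ranked among the first 1000 in all 3 replicates.

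The other 7 reproducible members fell far lower in replicate 2 or 3, or had no region there within 200 bp of the pooled summit. The tRNA-Ser gene C53C7.t1 ranked 104 in the pooled list and 72 and 103 in replicates 1 and 2, with no region in replicate 3. The tRNA-Tyr gene R11.t1, at pooled rank 118, had ranks 138 and 95 and none in replicate 3. The tRNA-Ile gene C42D8.t1, at pooled rank 176, had ranks 179 and 228 and none in replicate 3. All 5 reproducible tRNA regions lay on chromosome X, and only M02F4.t2 was among the first 1000 of replicate 3.

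C06G1.t1 (WBGene00022913), the tRNA-His gene, had pooled rank 150 and ranks 133, 691 and 4624. The snoRNA gene T02E1.9 (WBGene00045156), on chromosome I from 8224474 to 8224544 with its summit 101 bp upstream, had pooled rank 107 and ranks 82, 106 and 4047. W05B2.8 (WBGene00014543), the snRNA gene in an intron of dhc-4, had pooled rank 134 and ranks 164, 98 and 4945. C51F7.4 (WBGene00219860), a snoRNA gene whose summit lay in an exon of frm-7, had pooled rank 186 and ranks 130, 4689 and 734. It was the one region of the 10 outside the first 1000 of replicate 2.

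**Figure D2:**
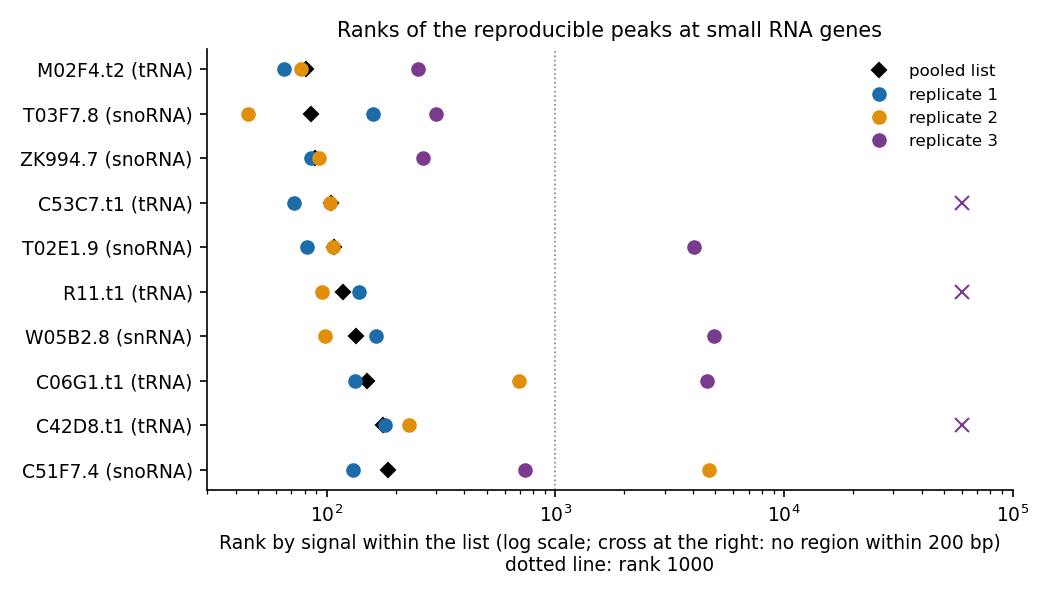
Rank of each of the 10 reproducible regions at small RNA genes (x axis, log scale, 1 the strongest) in the pooled list (diamonds) and the 3 replicate lists (circles), with a cross where replicate 3 had no region within 200 bp. All 10 are among the first 1000 of replicate 1, all but C51F7.4 (4689) among those of replicate 2, and 4 among those of replicate 3.

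The 74 members of the first 1000 were matched to the replicates in the same way. A region within 200 bp was found for 72, 61 and 41 of them in replicates 1, 2 and 3, and it was among the first 1000 for 46, 27 and 8. Of the other 926 first regions, 843, 740 and 678 had a match, and 408, 276 and 343 were among the first 1000. As shares of each set, 10.8% of the members and 37.0% of the others were among the first 1000 of replicate 3, and 62.2% and 44.1% among those of replicate 1. A pooled region is called from the same reads as the replicates, so these counts are a description and carry no test.

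The tRNA regions alone gave 28, 18 and 1 among the first 1000 of the replicates, of 44. The snoRNA regions gave 14, 8 and 6 of 25. Members matched in replicates 1 and 2 but not in 3 numbered 29 of 74, and 22 of these were tRNA regions. Of the other 926 first regions, 205 were matched in this way. Source, fragmentation and region width all set replicate 3 apart from the other replicates, and their parts in this difference cannot be told apart.

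Summits at tRNA genes were placed along the gene's strand, with the first base of the RNA as 0. Among the 44 tRNA regions of the first 1000, 39 summits lay upstream of the gene, 2 inside and 3 downstream. Their median was −32 and their quartiles were −35 and −27.8, and 36 lay from −50 to −15, or 81.8%. The 150 lower tRNA regions had 52.0% upstream, a median of −11.5 and 30.7% in that band. The band was chosen after the positions had been seen. The summits of strong tRNA regions thus sat in a narrow stretch next to the gene.

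**Figure D3:**
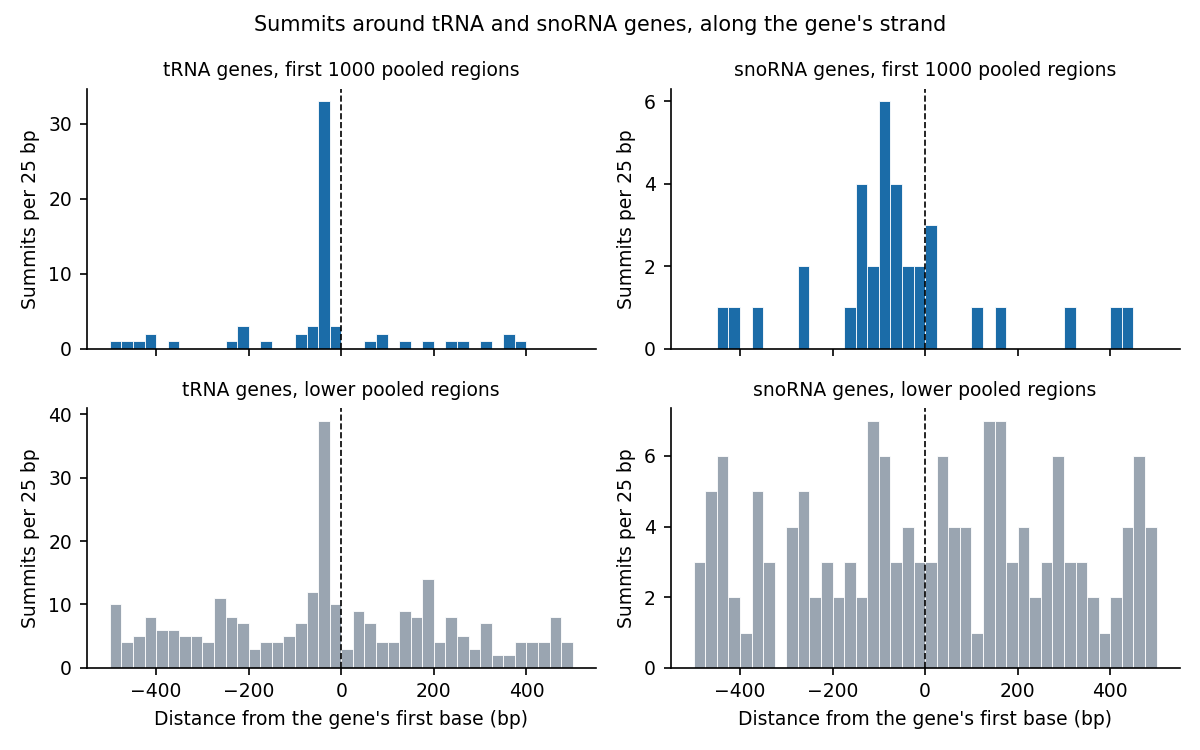
Number of summits per 25 bp (y axis) by distance from the first base of tRNA genes (left) and snoRNA genes (right) along the gene's strand, for the first 1000 pooled regions (top) and the lower regions (bottom), out to 500 bp, with a summit counted for each gene in reach. The bin from −50 to −26 holds 33 of the first regions at tRNA genes and 39 of the lower ones.

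Positions were also read at tRNA genes of single-copy and of shared sequence. Of the 612 nuclear tRNA genes, 469 share their full sequence with another, and how the authors placed reads that fit several copies is not given in the sources used here. The 5 single-copy members of the first 1000 had all summits upstream, at a median of −35, and the 39 with a shared sequence had 34 upstream, at a median of −31. Among the lower regions down to rank 5000, 7 of 8 single-copy and 18 of 34 shared-sequence summits were upstream, and neither difference was tested. Of the 150 lower regions, 117 were at genes with a shared sequence, or 78.0%, against 88.6% of the first 1000.

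In the replicates the upstream position was seen in 1 and 2 and not in 3. Among tRNA regions of the first 1000, 82.2%, 95% and 33.3% of the summits were upstream in replicates 1, 2 and 3, of 45, 20 and 6 regions, against 56.2%, 58.7% and 36.9% of the lower regions. The median position in replicate 3 was 64.5, against −32 and −31 in replicates 1 and 2. The difference in the upstream share was 19.6 ± 20.7 points (SD, n = 3, exact sign-flip p = 0.5), which is within its spread. Without replicate 3 it was 31.1 points, and without replicate 2 it was 11.2. Replicate 3 had 0 of its 6 first regions in the band from −50 to −15.

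**Figure D4:**
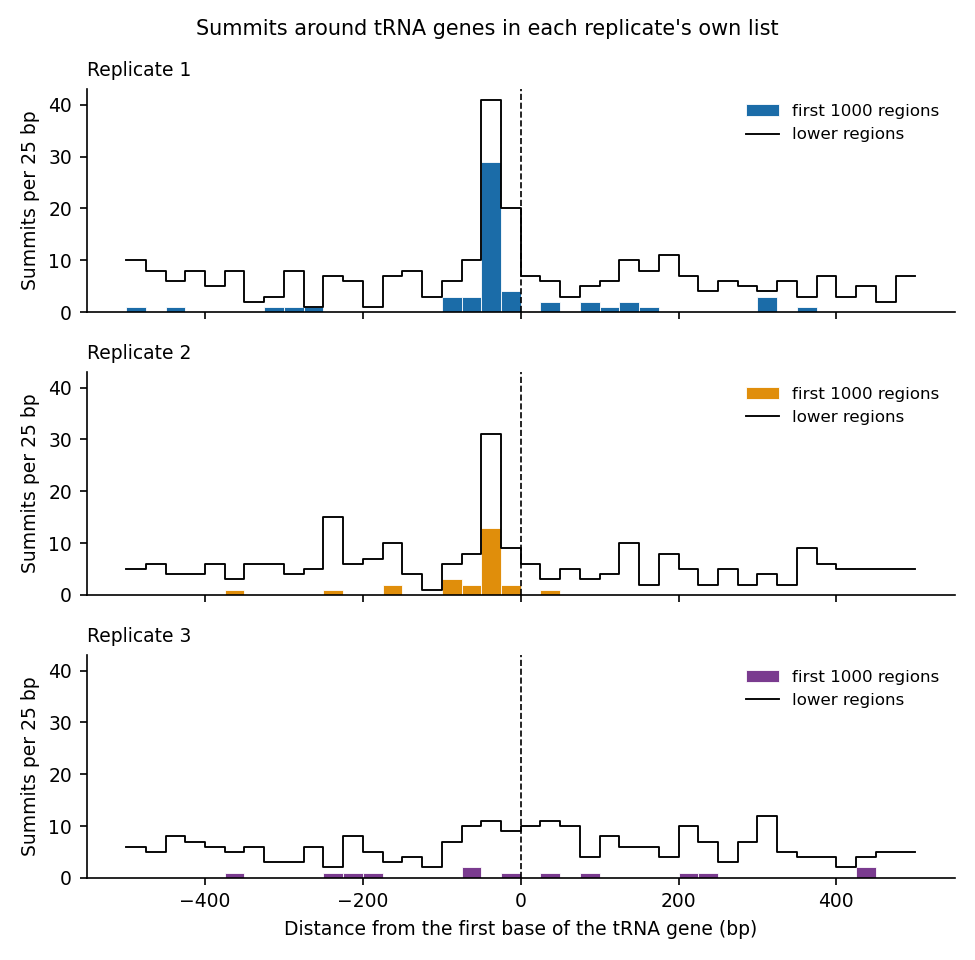
Number of summits per 25 bp (y axis) by distance from the first base of tRNA genes along the gene's strand in replicates 1, 2 and 3, for the first 1000 regions (bars) and the lower regions (line) of each list. The bin from −50 to −26 holds 29, 13 and 0 first regions and 41, 31 and 11 lower regions.

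Summits at snoRNA genes lay farther out. Of the 25 snoRNA regions in the first 1000, 20 were upstream, 3 inside and 2 downstream, with a median of −71, quartiles of −99 and −18 and 8 between −120 and −80, a band chosen after the positions had been seen. The 81 lower snoRNA regions had 37.0% upstream and a median of 51. By replicate, 82.4%, 63.6% and 10% of the first snoRNA regions were upstream, against 44.3%, 41.6% and 43.0% of the lower ones. The difference of 9.03 ± 37.3 points was within its spread (SD, n = 3, exact sign-flip p = 0.75). Without replicate 3 it was 30.1 points, without replicate 2 it was 2.5 and without replicate 1 it turned to −5.47.

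The core of box B, TTCNANNCC, was searched on the gene's strand from 150 bp upstream to the gene's end, after the printed sequences had been seen. It lay at 522 of 612 tRNA genes, or 85.3%, at 50 of 346 snoRNA genes, or 14.5%, at 12 of 129 snRNA genes and at 19 of 261 miRNA genes. Protein-coding genes held it in 7.91% of windows from 150 bp upstream to 130 bp downstream of their annotated start. Of tRNA genes with a first 1000 region, 35 of 44 held it, or 79.55%, and with a lower region 128 of 146, or 87.67%. The same counts were 0 of 3 and 2 of 28 for snRNA genes and 0 of 2 and 2 of 53 for miRNA genes. Among snoRNA genes it was found at 9 of the 25 with a first 1000 region, or 36.0%, and at 10 of the 79 with a lower region, or 12.7%. It lay upstream of the annotated RNA at 8 of these 9 genes, at 9 of these 10 and at 39 of all 50 snoRNA genes with a match. A match of these letters is a description and not a site.

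The spacing from summit to box B was measured at both kinds of gene. In the 35 tRNA genes of the first 1000 with a match, box B began at a median of 84 bp downstream of the summit (quartiles 80 and 90), and 28 began 70 to 100 bp downstream. In most of these tRNA genes box B began from base 53 to base 65, so this spacing largely restates the summit positions. In the 9 snoRNA genes the median spacing was 77 bp, with a range of −20 to 101, and 4 began 70 to 100 bp downstream. T03F7.8 and the snoRNA genes T02E1.9 and F32E10.10 had 79, 77 and 77 bp. The snoRNA values spread more widely, and with 9 genes the medians were not tested against each other.

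**Figure D5:**
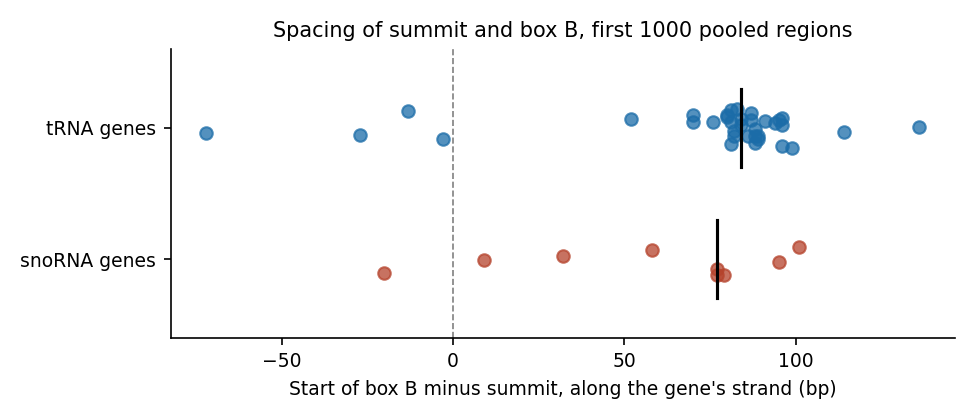
Distance from the summit to the start of the box B core along the gene's strand (x axis, bp) for tRNA genes (top, 35) and snoRNA genes (bottom, 9) of the first 1000 pooled regions, 1 point per region and a bar at the median. The medians are 84 and 77 bp, and points left of 0 have box B upstream of the summit.

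Outside the reproducible list, the strongest tRNA regions were at F15B9.t1 (tRNA-Ala, rank 197), rte-1 (tRNA-Glu, rank 216) and F46G11.t2 (tRNA-Pro, rank 218). Their summits lay at −32, −29 and −30. The region at rte-1 ranked 509, 267 and 8290 in replicates 1, 2 and 3, and that at F46G11.t2 ranked 1138, 139 and 6733. F15B9.t1, at 141 in replicate 1 and 2432 in replicate 2, was without a region in replicate 3. All 3 were thus high in the pooled list and far lower in, or missing from, replicate 3. The next tRNA regions, from rank 227 to 396, were at F41D9.t1, ZK678.t1, F38G1.t2, H08J11.t3, K09A11.t1, ZK563.t1, K04C2.t3, T04D3.t4, F29C4.t1, ZK783.t1 and F47G6.t1. Their summits lay from −44 to −17, except that of F29C4.t1 at 80.

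The first 1000 reached 17 of the 21 tRNA isotypes annotated, with at most 4 regions for any isotype. tRNA-Ser, tRNA-Ile and tRNA-Asp had 4 each, of 39, 29 and 27 genes. tRNA-Gly, with 55 genes the largest isotype, had 17 regions in the pooled list and 0 in the first 1000. The regions were therefore spread over the genetic code and not held by a few isotypes. The region at the suppressor gene sup-5, which encodes tRNA-Trp, had pooled rank 605 and ranks 1875, 109 and 13325 in replicates 1, 2 and 3.

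Of the 44 tRNA regions in the first 1000, 27 lay on chromosome X, or 61.4%, against 44.0% of the 150 lower tRNA regions. X carries 276 of the 612 nuclear tRNA genes, or 45.1%. By place, 23 of the 44 summits were intergenic, 20 lay in introns of protein-coding genes and 1 in an exon, and of the 21 within genes 14 tRNAs were on the opposite strand to the host. Only 8 of the 44, or 18.2%, lay in a coding promoter window, 1000 bp upstream to 200 bp downstream of a transcript start, against 43.8% of the other 926 first regions. The window held 24.0% of the 150 lower tRNA regions and 29.45% of all pooled regions. The tRNA regions were thus mostly away from coding promoters at either rank, as were pooled regions as a whole.

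Among the snoRNA regions below the reproducible list, C27H5.9 (rank 292, summit −96), C04G6.12 (rank 303, summit −87) and B0334.12 (rank 348, summit 162) came next, followed by K11C4.6 (rank 350, summit −132) and F12F6.11 (rank 368, summit −99). C04G6.12, in an intron of mpk-2 on the opposite strand, ranked 617, 221 and 21578 in replicates 1, 2 and 3. Of the 25 snoRNA regions in the first 1000, 13 were intergenic, 9 intronic and 3 exonic, and 7 of the 12 within genes were on the strand of the host. No snoRNA gene in the annotation shares its full sequence with another. None of the 25 lay on chromosome X, which carries 33 of the 346 snoRNA genes.

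The snRNA class held few strong regions. After W05B2.8, the next were at sls-2.1 (rank 273, summit −57) and sls-2.2 (rank 602, summit 92), which encode spliced leader RNAs of the SL2 type, trans-spliced to the messages of downstream genes in operons. sls-2.1 ranked 354 and 543 in replicates 1 and 3 and 17665 in replicate 2. For sls-2.2 the ranks were 565 in replicate 1 and 18578 in replicate 3, with no region in replicate 2. Neither was thus high in all replicates.

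The miRNA regions with a first 1000 rank were at cel-mir-228 (rank 667, summit 5) and cel-mir-90 (rank 832, summit −91). The region at cel-mir-228 ranked 837, 16551 and 3663 in replicates 1, 2 and 3, and that at cel-mir-90 ranked 6612, 3471 and 19870. The third, cel-mir-235, ranked 2611. For the first pair, and for let-7, lin-4 and mir-237, whose families time larval development, 1 of the mature RNAs that RefSeq annotates for each gene is printed, with bases 2 to 8, the seed, in capitals. lin-4 and mir-237 share their seed, that of let-7 is held by 5 genes and that of mir-90 by 3.
mir-228: aAUGGCACugcaugaauucacgg
mir-90: uGAUAUGUuguuugaaugccccu
let-7: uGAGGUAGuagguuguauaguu
lin-4: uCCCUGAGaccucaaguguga
mir-237: uCCCUGAGaauucucgaacagcu

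The regions of the developmental timing miRNAs that were members ranked outside the first 1000. let-7 had a summit inside its annotated gene at rank 7345, which ranked 1935 in replicate 1 and had no match in replicates 2 and 3. lin-4 had one 65 bp away at rank 18369, mir-237 one 166 bp away at rank 3252 and mir-795, of the let-7 seed family, one 84 bp away at rank 15520. mir-48, of the same family, had its nearest summit 526 bp away at rank 660, outside the limit of 200 bp, and ranked 242 in replicate 1 with no match in replicates 2 and 3. mir-241 and mir-84 had their nearest summits 218 and 1243 bp away. At the limit itself, cel-mir-8197 lay just inside at 200 bp (rank 5246) and the tRNA gene K02A4.t1 just outside at 202 bp (rank 706).

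CACGTG was rarer in strong regions at these genes than in other strong regions. Of the 74 members in the first 1000, 5 held CACGTG on either strand within 100 bp of the summit, or 6.76%, against 24.5% of the other 926. They were at the tRNA genes F29C4.t1 and ZK783.t1 and the snoRNA genes T28B8.11, ZK484.9 and H09I01.2, named after their values were seen. By class, CACGTG lay in 4.55% of first 1000 and 3.33% of lower tRNA regions. At snoRNA genes it lay in 3 of 25 first 1000 regions, or 12.0%, and in 1 of 81 lower ones. Of the other lower regions 4.04% held it. Over each replicate's whole list the share was 4.21%, 2.36% and 4.47% of the members, against 4.33%, 4.23% and 5.0% of the rest. The difference of −0.839 ± 0.912 points was within its spread (SD, n = 3, exact sign-flip p = 0.25, adjusted p = 0.321). Without replicate 3 it was −0.991 points, and without replicate 2 it was −0.326. CACATG, a variant E-box, lay in 34.1% of the 44 tRNA regions of the first 1000 and 12.0% of the 150 lower ones, against 18.3% and 7.57% of other regions. It lay in 2 of the 25 snoRNA regions of the first 1000, or 8.0%, and in 0 of the 3 snRNA and 2 miRNA regions. At the 44 tRNA regions the window mostly reaches into the gene, and 88.6% of them lay at genes with a shared sequence. The 4 tRNA-Asp regions among them, at F38G1.t2, F41A4.t1, F28F8.t3 and F22F1.t5, all held CACATG. How many CACATG matches lie inside a tRNA gene was not counted, so the tRNA shares may partly restate summit positions and gene copies.

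AGAGAC lay in 29.7% of the 74 members of the first 1000 and in 26.0% of the other 926. GGTTCGA, which overlaps box B, lay in 22 of the 44 tRNA regions, where it is part of the tRNA gene, and in 1.40% of the other 926. The bases within 100 bp of the summit were 47.8% G or C at the median of the 74 members and 41.8% in the other 926. Base composition thus moved with membership, and its part in the ranks was not tested.

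The protein-coding genes that make and process these RNAs were looked up by list, with a region in the coding promoter window counted. Of 16 genes for RNA polymerase III and snRNA gene transcription, 8 had a pooled region and 1 a first 1000 region, tbp-1, which encodes the TATA-binding protein, at rank 576. Of 22 matched genes for tRNA processing and charging, 15 had a region and 1 a first 1000 region, the asparaginyl-tRNA synthetase gene nars-1 at rank 199. The lists of 7 matched miRNA processing genes and 6 snoRNA protein genes had 4 and 2 with a region and 0 in the first 1000. No list had a reproducible peak. Over all protein-coding genes, 39.9% had a pooled region and 2.26% a first 1000 region in the window, so the counts of 1 and 0 are no result about the lists. The symbols xpo-5 and vars-2 were not matched.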

How the data were processed

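ChIP-seq lists of 3 biological replicates, a pooled list and a reproducible list were used in the ce11 build. The authors deposited a signal value per region, on a scale of its own list. Per the labels, the pooled and replicate lists hold peaks and background before thresholding by the irreproducible discovery rate, and a possible control experiment is named, which was not analysed here. Not given in the sources used here are the aligner, the caller and the threshold behind the reproducible list. With no read totals, the depth per sample is unknown.

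Regions were ranked by signal within each list and assigned to the nearest gene by the summit, with Ensembl release 115 annotation of WBcel235 and RefSeq products. RefSeq names were used where Ensembl gives genes no symbol or a shared one. Coordinates are 1-based. Mitochondrial genes were left out. The sequence of 1 member is not reported here. Regions of different lists were matched when summits lay within 200 bp. Shares, median percentiles and CACGTG shares were compared within each replicate, and the 3 differences by a two-sided exact sign-flip test with Benjamini-Hochberg adjustment over 9 tests. The labels do not tell how the replicates were cultured, so these p-values measure only the spread between these samples. Upstream shares and box B were added after the data had been seen and lie outside the adjustment. The shares were tested on simulated lists with known answers. Positions were checked with summits planted upstream of tRNA genes, and the sign-flip test against the permutation test of SciPy.

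The members and the lists were chosen with earlier results of these data known. Genes were named as follows: every reproducible member, the first 30 members of the first 1000, the first 3 of each class, members in the first 1000 of all 3 replicates, those next to the limit of 200 bp, and the let-7 and lin-4 families. Alternatives varied the distance, the number of first regions, coding promoters, clusters, windows and replicates. SciPy 1.17.1, pandas 2.3.3, numpy 2.4.6 and matplotlib 3.10.9 were run under Python 3.11.15.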

Additional observations from a re-analysis of the deposited data

How the results depend on the processing

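The rRNA difference is 0 and has no direction, and with 500 bp it was 0.0310 points. Of 93 alternative values of the other tested differences, 89 kept their direction and none could pass the threshold, since the exact test cannot go below p = 0.25 with 3 replicates or 0.5 with 2. Those that reversed were miRNA values and 1 snoRNA value. The miRNA difference between the first 1000 and the lower regions was −0.0248 points with any overlap of region and gene and −0.151 with the first 500 regions. Leaving out each replicate in turn gave −0.0477 to 0.0569 points for miRNA and −5.47 to 30.1 for the upstream share of snoRNA summits. For all classes together it gave 1.68 to 4.11 points. With the summit required inside the gene, the difference was 0.471 points for all classes and 0.0580 for tRNA, and that in CACGTG was −2.68 points. In CACGTG it was −0.245 with 50 bp on either side of the summit.

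The share of reproducible peaks at these genes was 0% with the summit required inside the gene, and 2.08% to 8.38% when the first 1000 regions shared by the other replicates took the place of the reproducible list. Peak set and replicates changed together there. Members with a region in all 3 replicates numbered 49 at a match of 200 bp, 21 at 100 bp and 76 at 400 bp, which follows from the wider window. Upstream shares under the 0 bp rule have no value, because no summit is then upstream. Nor has the comparison with coding starts when coding promoters are left out. Other causes were not tested. The alternatives for the upstream shares were chosen after seeing the data. Unknown depth limits what a low rank in 1 replicate can show.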
